A study of Daphnia magna with 30 samples.

Results

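The transcripts described here were those whose level in Daphnia magna, a planktonic crustacean, was highest or lowest at the middle of a range of day lengths. They were 100 of the 11823 probes that stood well above background on at least 15 of 30 arrays, out of 14338 probes on the array. The 100 were chosen by the size of a curvature contrast, in which photoperiod 4L:20D (hours of light and of dark) was weighted 2, 8L:16D had -1, 12L:12D had -2, the next (16L:8D) again -1 and 20L:4D had 2, and the largest absolute ordinary t values were kept. A negative t is called a hump, with middle day lengths above the ends, and a positive t a trough. There were 69 humps and 31 troughs. The curvature was what chose them, so it is described below without a test.

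Every animal was a female of 1 laboratory clone, started from 1 individual and kept in culture at 16L:8D. Neonates under 24 hours old went into the photoperiod chambers, 20 to a chamber and 3 chambers to a photoperiod, and were sampled at 21 days, at 25 °C on algae and a yeast-based food. Each chamber gave 2 animals, lettered A and B and each hybridised to an array of its own, so a photoperiod had 6 animals. The control of the study was 16L:8D. The 3 chambers of a photoperiod shared a box, and animals were taken soon after lights-on, so that box, the length of the preceding dark phase and day length cannot be told apart. Whole animals were used, with any brood they carried, and fewer cells of a type and less RNA per cell cannot be told apart.

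Day length is read by many crustaceans and insects as a cue to season, and in Daphnia it acts on reproduction and on swimming towards or away from light. Vision in arthropods starts with rhodopsin, a receptor made of an opsin protein and a light-absorbing retinoid. In flies the active receptor opens channels of the transient receptor potential family, and arrestin then binds the receptor and ends the signal. Genes of this pathway appear among the humps, together with enzymes of lipid, inositol phosphate and peptide metabolism.

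The probes are 50 or 60 bases long, and the tables of the study give a sequence for 24 of the 100 (21 humps and 3 troughs). The 6 below are those of the transcripts the results turn on, written 5′ to 3′ as listed: arrestin, a rhodopsin of each of the types gprop1 and gprop2, a transcript that was at background in the shortest days, an inositol phosphatase, and a trough annotated as glucose dehydrogenase.
DM03055P2: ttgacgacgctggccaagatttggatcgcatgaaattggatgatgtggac
DM06155P2: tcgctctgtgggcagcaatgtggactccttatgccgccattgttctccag
DM12611P4: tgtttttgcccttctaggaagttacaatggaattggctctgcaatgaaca
DM15253P2: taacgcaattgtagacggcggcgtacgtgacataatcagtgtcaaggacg
DM08389P2: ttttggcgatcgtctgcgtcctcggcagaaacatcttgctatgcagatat
DM00868P2: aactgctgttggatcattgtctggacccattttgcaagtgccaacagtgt

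The gprop1 and gprop2 probes shared no run longer than 7 bases on either strand. The 24 sequences had a median GC content of 48.0% (range 40.0% to 56.0%), and the 953 sequences in those tables had the same median. Each of the 100 probes belonged to a different target. No target name matched the RefSeq gene table used here, so no chromosome position is given. An annotation was at hand for 23 members, 20 humps and 3 troughs, and named a protein in 16. The study tabulated annotations for transcripts it had called, so the annotated members were not a random draw of the 100.

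The value of a probe is its log2 processed signal less the 75th percentile of its array, so a value compares animals for 1 probe and not 1 probe with another. The size of a hump or trough is the mean of the 2 end photoperiods minus a mean of the 3 middle ones in which 12L:12D counts double. For the humps the size ran from 0.21 to 1.70 on the log2 scale with a median of 0.71, a 1.64-fold difference, and 13 exceeded 1. For the troughs it ran from 0.14 to 0.81 with a median of 0.29, a 1.22-fold difference, and none exceeded 1. Over all 11823 probes the median absolute size was 0.12. The median residual SD among animals of a photoperiod was 0.21 in the troughs, 0.50 in the humps and 0.42 over all probes. The rule divides by this SD, so a trough of small size could enter only with a small SD, and nothing is read from it. Of the troughs, 27 were well above background on all 30 arrays, as were 47 of the humps (87.1% and 68.1%, against 75.4% of all 11823 probes).

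Most members had the shape their name says, which the rule that chose them favours, so nothing is read from the counts. In 60 humps all 3 middle means lay above both end means, and in 26 troughs all 3 lay below. The peak was not always at 12L:12D: the highest mean fell at 8 hours of light in 38 humps, at 12 hours in 15, at 16 hours in 15 and at 20 hours in 1. The lowest mean of the troughs fell at 8 hours in 20, at 16 hours in 8 and at 12 hours in 3. The lower of the ends was 20L:4D in 49 humps and 4L:20D in 20. Of the 49, 28 belonged to 1 group of 30 humps that varied together, described below.

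**Figure D1:**
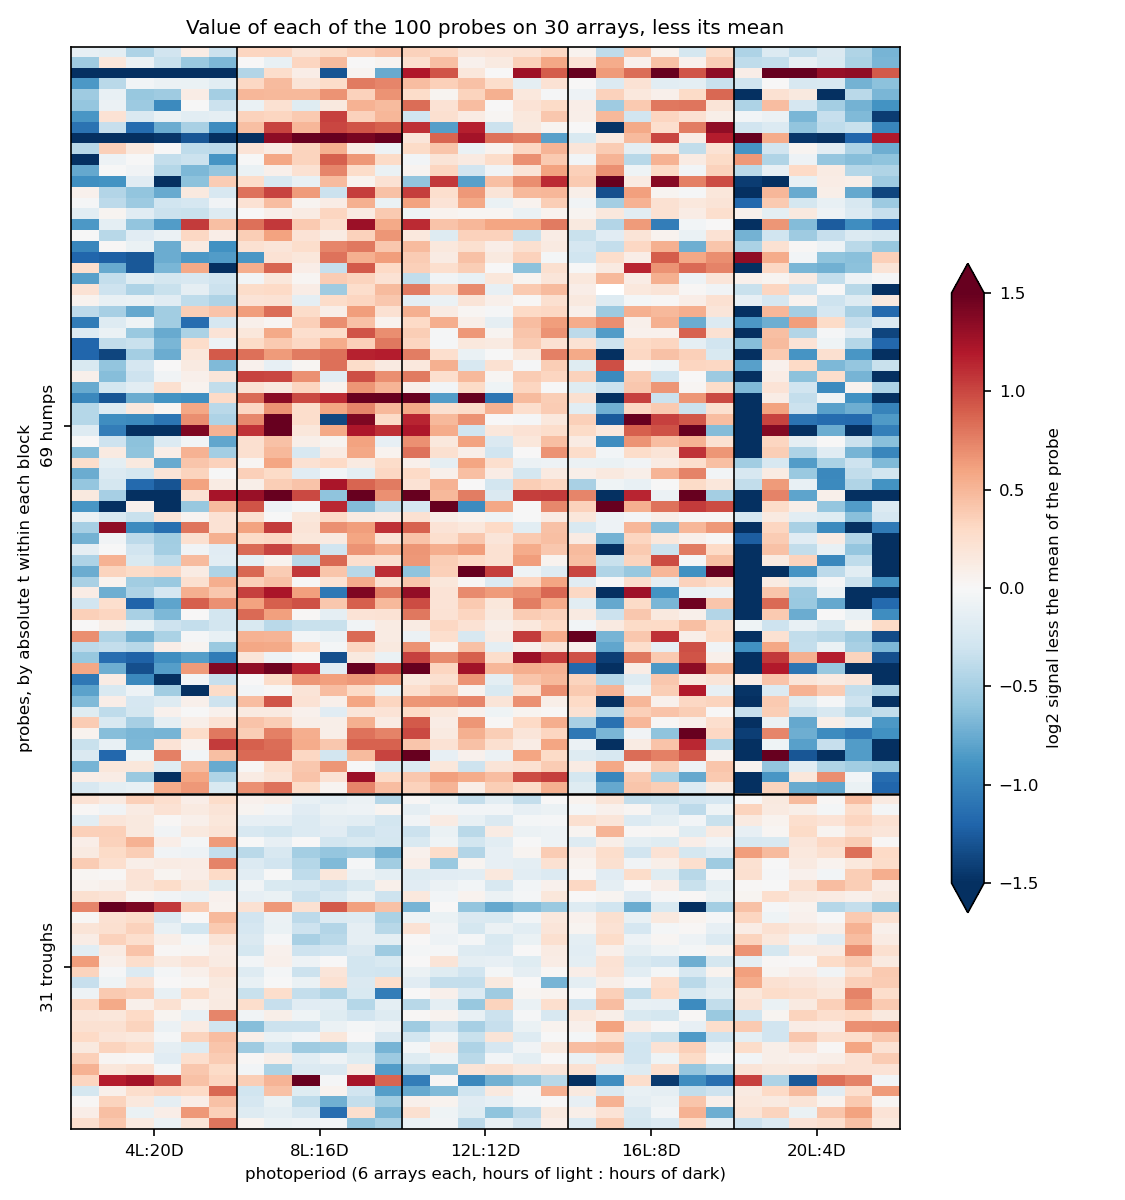
Values of the 100 probes (rows, 69 humps above 31 troughs, by absolute t) on the 30 arrays (columns, 6 for each photoperiod, ordered by replicate and letter), as log2 signal less the mean of the probe, with colours ending at -1.5 and 1.5. Most humps are pale or blue in 4L:20D and 20L:4D, and the first column of 20L:4D, the letter A animal of replicate 1, is dark blue in many of them.

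The means of several array measures differed between photoperiods as well, which was not tested. The 75th percentile of the signal averaged 480 ± 63.0 intensity units (SD, n = 6) at 4 hours of light, 506 ± 98.1 at 8 hours, 552 ± 24.4 at 12 hours, 437 ± 54.8 at 16 hours and 485 ± 111 at 20 hours, and the share of probes well above background was likewise highest in 12L:12D (84.3% ± 4.09). Of the 6 arrays in the first row of their slide, 3 came from the shortest days (4L:20D), 1 from 8L:16D and 2 from the control. The part of these measures in the humps and troughs was not tested beyond the values that follow. With slide as a block, all 100 members kept their direction and the median size was 0.66 for the humps and 0.31 for the troughs. The ranking itself was less stable: a list of 100 made in that fit shared 24 with the list here and held 22 humps and 78 troughs. Scaling to the array median gave 44 humps and 56 troughs, with 69 members shared, and quantile normalisation gave 49 and 51, with 74 shared. The balance of humps over troughs therefore depended on the scaling and on the slide block. Nothing is read from the kept direction, since the rule chose the members by this contrast on the same arrays.

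A pair of animals from different photoperiods was low across many humps. In 20L:4D the letter A animal of replicate 1 was the lowest of its 6 in 39 of the 69, and over the humps its mean deviation from its photoperiod was -0.81, while that of its chamber mate was 0.75. In 16L:8D the letter B animal of replicate 1 was the lowest in 38, with a mean deviation of -0.53. The next counts were 28 and 26, in animals of 12L:12D and 8L:16D. For the 20L:4D animal the 75th percentile of the array was 360.4 and the quality weight 0.311, where the 30 weights ran from 0.288 to 3.08. Without that array, a new list of 100 shared 62 members with the list here (42 humps and 20 troughs), and the median size of the 69 humps was 0.61 in place of 0.71. Without the chamber of the 16L:8D animal, 48 humps and 22 troughs were shared, and the median size of the humps was 0.75.

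Of the lists of annotated transcripts, the visual pathway held the most members. A blue wavelength opsin that the study named for its other trial was not among the probes of this list and was not assessed. Of the 5 probes annotated as rhodopsin or arrestin, 4 were humps. The study tabulated all 5 for the trial analysed here, from these same arrays, so their number is no independent evidence. A smaller share of each other list was tabulated for this trial, as given below, so the lists cannot be compared as pathways. Arrestin, DM03055P2, which ends the light signal by binding active rhodopsin, had a lowest, median and highest value of 3.91, 4.15 and 4.75 at 4 hours of light, of 4.47, 4.61 and 5.05 at 8 hours, of 4.64, 4.88 and 5.16 at 12 hours, of 4.64, 4.86 and 5.14 at 16 hours and of 3.89, 4.21 and 4.46 at 20 hours. Every 20L:4D animal lay below every animal of the 3 middle photoperiods, and 4L:20D overlapped them through its 2 highest animals. The middle of the range was 1.53-fold above the ends (size 0.61). The ends themselves did not differ beyond error, with 20L:4D minus 4L:20D at -0.04 (95% interval -0.35 to 0.26, adjusted p 0.954 in limma).

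The 2 gprop1 probes that were members followed the same course. DM06131P3 averaged 5.04 ± 0.33 at 4 hours of light, 5.36 ± 0.21 at 8 hours, 5.40 ± 0.23 at 12 hours, 5.23 ± 0.28 at 16 hours and 4.74 ± 0.35 at 20 hours (SD, n = 6). DM06155P2, whose annotation is a partial gprop1 sequence, averaged 3.51 ± 0.32, 4.11 ± 0.31, 4.06 ± 0.31, 4.19 ± 0.28 and 3.76 ± 0.32 in the same order. The ranges of neighbouring photoperiods overlapped in both. Whether the 2 probes report 1 gene or several is not given by the annotation, so they do not count as separate observations of a gene.

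The gprop2 probe, DM12611P4, was at -0.48 ± 0.46 at 4 hours of light, 0.33 ± 0.27 at 8 hours, 0.38 ± 0.29 at 12 hours, 0.22 ± 0.55 at 16 hours and -0.14 ± 0.58 at 20 hours (SD, n = 6), a size of 0.63. Its 20L:4D animals ranged from -0.80 to 0.69 and overlapped all the others. The difference between the ends was not past the threshold for any of the 3 rhodopsin members: -0.30 for DM06131P3 (95% interval -0.67 to 0.06, limma adjusted p 0.721), 0.25 for DM06155P2 (-0.13 to 0.64, 0.742) and 0.34 for DM12611P4 (-0.22 to 0.90, 0.758). These intervals are wide enough to hold end differences as large as the humps themselves. The fifth probe of the list, DM01796P2, also annotated as gprop1, was not a member. It averaged -1.21 ± 0.12 at 4 hours of light, -0.88 ± 0.11 at 8 hours, -1.07 ± 0.17 at 12 hours, -0.66 ± 0.23 at 16 hours and -0.96 ± 0.17 at 20 hours, with a dip at 12L:12D and a size of 0.17.

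**Figure D2:**
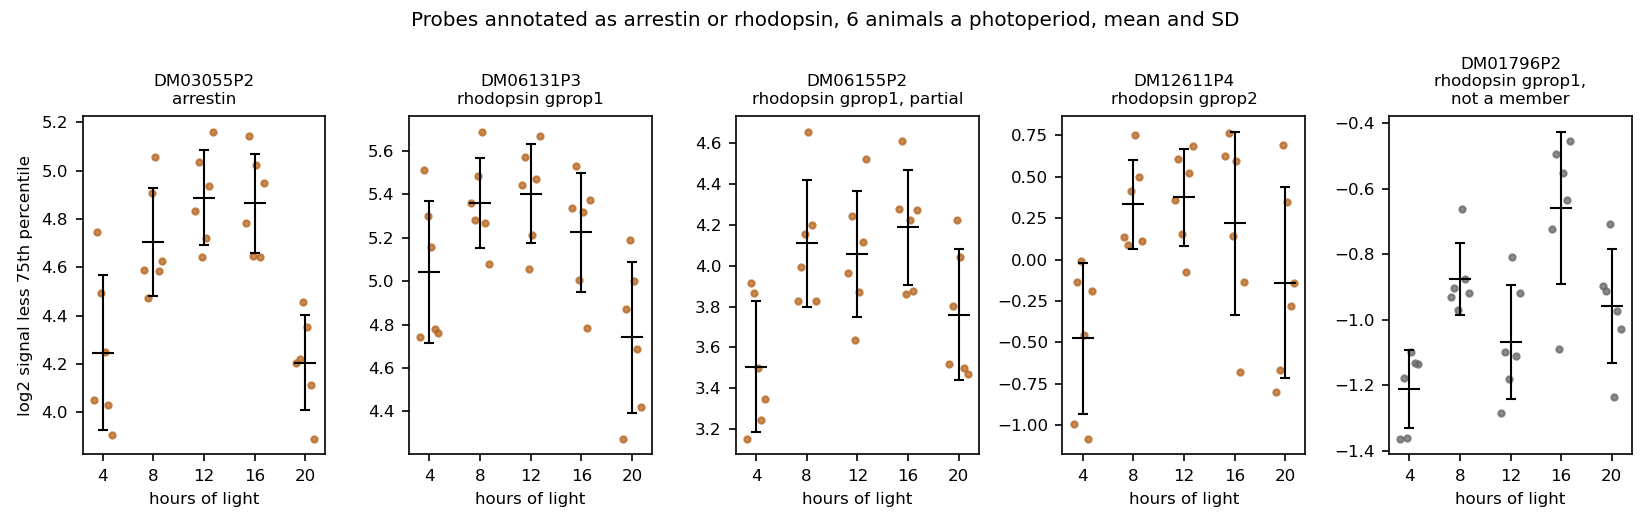
Log2 signal less the 75th percentile (each panel with its own axis) against hours of light for the 5 probes annotated as arrestin or rhodopsin, with a point for each of 6 animals and the mean and SD in black. The 4 members are lower at 4 and 20 hours than between them, and DM01796P2, in grey, has its highest mean at 16 hours.

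The same 4 members also varied together within photoperiods. After the photoperiod means were removed, Pearson's r over the 30 arrays was 0.88 between arrestin and DM06155P2, 0.86 between arrestin and DM06131P3 and 0.91 between the 2 gprop1 members. For gprop2 it was 0.60 with arrestin and 0.75 and 0.76 with the gprop1 members. DM01796P2 had r of 0.30 with arrestin and 0.06 with gprop2. These are descriptions over arrays that share slides, labelling and scaling. A second member of the pathway by annotation, the short transient receptor potential channel DM04699P3, averaged -4.67 ± 0.36, -3.97 ± 0.27, -4.35 ± 0.23, -4.30 ± 0.26 and -5.002 ± 0.51 from the shortest to the longest days. Its r was 0.58 with arrestin, 0.38 with DM06131P3, 0.51 with DM06155P2 and 0.14 with gprop2. DM13599P2, a protein with a CRAL/TRIO domain, a fold that binds retinoids and other lipids, averaged -4.81 ± 0.29, -3.92 ± 0.13, -4.23 ± 0.20, -4.17 ± 0.32 and -5.11 ± 0.82, and its deviations were unrelated to those of arrestin (r 0.03). In 20L:4D the channel probe was well above background on 5 of 6 arrays and the CRAL/TRIO probe on 4, so their means there are partly near background. Both channel and CRAL/TRIO probes peaked at 8L:16D, and their sizes of 0.59 and 0.82 were 0.11 and 0.22 after normexp background correction with quantile normalisation. Under the same setting the sizes of DM10172P1, DM10575P2 and DM15253P2 were also smaller, at 0.13, 0.25 and 0.21. That setting adds an offset of 50 intensity units before the log2, which by construction narrows log2 differences most at low signals. How much of the smaller sizes came from the offset was not tested.

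The hump with the largest t had no annotation. DM02017P1 had a lowest, median and highest value of 7.53, 7.78 and 8.10 at 4 hours of light, of 8.19, 8.32 and 8.43 at 8 hours, of 8.18, 8.26 and 8.34 at 12 hours, of 7.62, 8.05 and 8.41 at 16 hours and of 7.30, 7.59 and 7.79 at 20 hours. All animals of 8L:16D and 12L:12D lay above all animals of both ends, and 16L:8D overlapped every group. The SD was 0.20 in 4L:20D, 0.08 and 0.07 in the next 2 photoperiods, and 0.30 in 16L:8D. DM10172P1, likewise without annotation, peaked at 8L:16D (-3.98 ± 0.25) and was at -4.72 ± 0.31 in 4L:20D and -4.79 ± 0.27 in 20L:4D.

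Enzymes were among the other named humps. DM08389P2, multiple inositol polyphosphate phosphatase 1, which removes phosphates from inositol polyphosphates, had a lowest, median and highest value of -1.67, -1.36 and -0.86 at 4 hours of light, of -0.07, 0.40 and 0.50 at 8 hours, of -1.35, -0.42 and 0.65 at 12 hours, of -1.99, -0.10 and 0.81 at 16 hours and of -1.501, -0.87 and -0.72 at 20 hours. All 8L:16D animals were above all animals of both ends, whereas 12L:12D and 16L:8D spread over the whole range. The middle was 2.00-fold above the ends. DM10575P2, peroxisomal phytanoyl-CoA dioxygenase, which starts the breakdown of branched fatty acids, averaged -3.91 ± 0.35, -3.32 ± 0.29, -3.17 ± 0.29, -3.20 ± 0.50 and -3.89 ± 0.47 from the shortest to the longest days, and its ends differed by 0.02.

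Among the members with a named protein further down the list, DM04839P3, a microsomal dipeptidase, was highest at 8L:16D (-3.21) and lowest at 20L:4D (-4.92). DM08834P1, annotated as Soldier-specific protein-1, had the same order, from -1.29 to -2.77. DM00966P3, glutamate decarboxylase, which makes the transmitter GABA, stayed between -4.24 and -4.45 up to 16L:8D and was at -5.01 in 20L:4D, so its curvature came from 1 end. DM02198P3, apolipoprotein D, a lipocalin that carries small lipids, peaked at 12L:12D (6.16 ± 0.35) above 4L:20D (4.33 ± 0.24), with 20L:4D at 5.28 ± 1.26. On omitting each of the 15 chambers in turn, DM04839P3 stayed in the list in 2 cases, DM02198P3 in 5, DM00966P3 in 11 and DM08834P1 in 14. These 4 were picked for their annotation after their values were seen, as was the largest hump, DM08911P1, annotated as an uncharacterized protein. It averaged -1.59 ± 0.53 at 4 hours of light, 1.55 ± 1.32 at 8 hours, 0.93 ± 0.73 at 12 hours, 0.86 ± 0.55 at 16 hours and 0.33 ± 1.60 at 20 hours, a size of 1.70.

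A rise that levels off also bends, and the 1 hump with its highest mean in 20L:4D was of that kind. DM15253P2, annotated as a hypothetical protein, was well above background on none of the 6 arrays of 4L:20D, on 5 of 8L:16D and on all 18 of the others. Its median value was -7.30 at 4 hours of light, -4.83 at 8 hours, -3.70 at 12 hours, -3.49 at 16 hours and -3.31 at 20 hours, and the highest 4L:20D animal (-6.56) was below the lowest of 8L:16D (-5.92). With 4L:20D at its detection bound, the probe read at least 1.76-fold higher at 8 hours of light, at least 3.77-fold at 12 hours, at least 5.07-fold at 16 hours and at least 5.11-fold at 20 hours. The gain thus fell in the shorter days, and the 16L:8D and 20L:4D means lay 0.01 apart.

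The troughs were mostly unannotated and small. DM14511P3 had a lowest, median and highest value of -2.56, -2.42 and -2.30 at 4 hours of light, of -3.09, -2.76 and -2.57 at 8 hours, of -3.02, -2.79 and -2.64 at 12 hours, of -3.02, -2.92 and -2.46 at 16 hours and of -2.65, -2.51 and -2.19 at 20 hours. All 4L:20D animals lay above all of 8L:16D and 12L:12D, and 20L:4D overlapped the middle groups. Its ends were 1.29-fold above the middle. DM12841P1 moved by only 0.19 but with little spread, from -0.98 ± 0.11 and -0.96 ± 0.15 at the ends to -1.16 ± 0.04 at 12L:12D.

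Other troughs were lowest at 8L:16D rather than at 12L:12D. DM03455P3 went from -0.07 ± 0.13 at 4 hours to -0.31 ± 0.06 at 8 hours and back to 0.06 ± 0.09 at 20 hours, and DM11131P3 from 0.19 ± 0.16 to -0.25 ± 0.05 and 0.10 ± 0.15. DM12318P2 had the same low point (-1.16 ± 0.16) between -0.61 ± 0.27 and -0.22 ± 0.26. DM05458P1 was level across the middle, at -2.90, -2.89 and -2.82, below -2.48 and -2.69 at the ends.

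Only 3 troughs had a named protein. DM05678P4, annotated as nitrate reductase 1, averaged 2.90 ± 0.43, 2.96 ± 0.66, 1.54 ± 0.39, 1.11 ± 0.79 and 2.30 ± 0.90 from the shortest to the longest days, so that the drop lay between 8L:16D and 12L:12D. DM00868P2, glucose dehydrogenase, which oxidises glucose, averaged -3.13 ± 0.59, -3.49 ± 0.27, -4.55 ± 0.28, -4.68 ± 0.74 and -4.15 ± 0.38. DM03547P2, the telomere-associated protein RIF1, which in yeast and mammals acts in telomere upkeep and replication timing, was lowest at 8L:16D (-2.67 ± 0.16) and lay between -2.29 and -1.97 elsewhere.

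**Figure D3:**
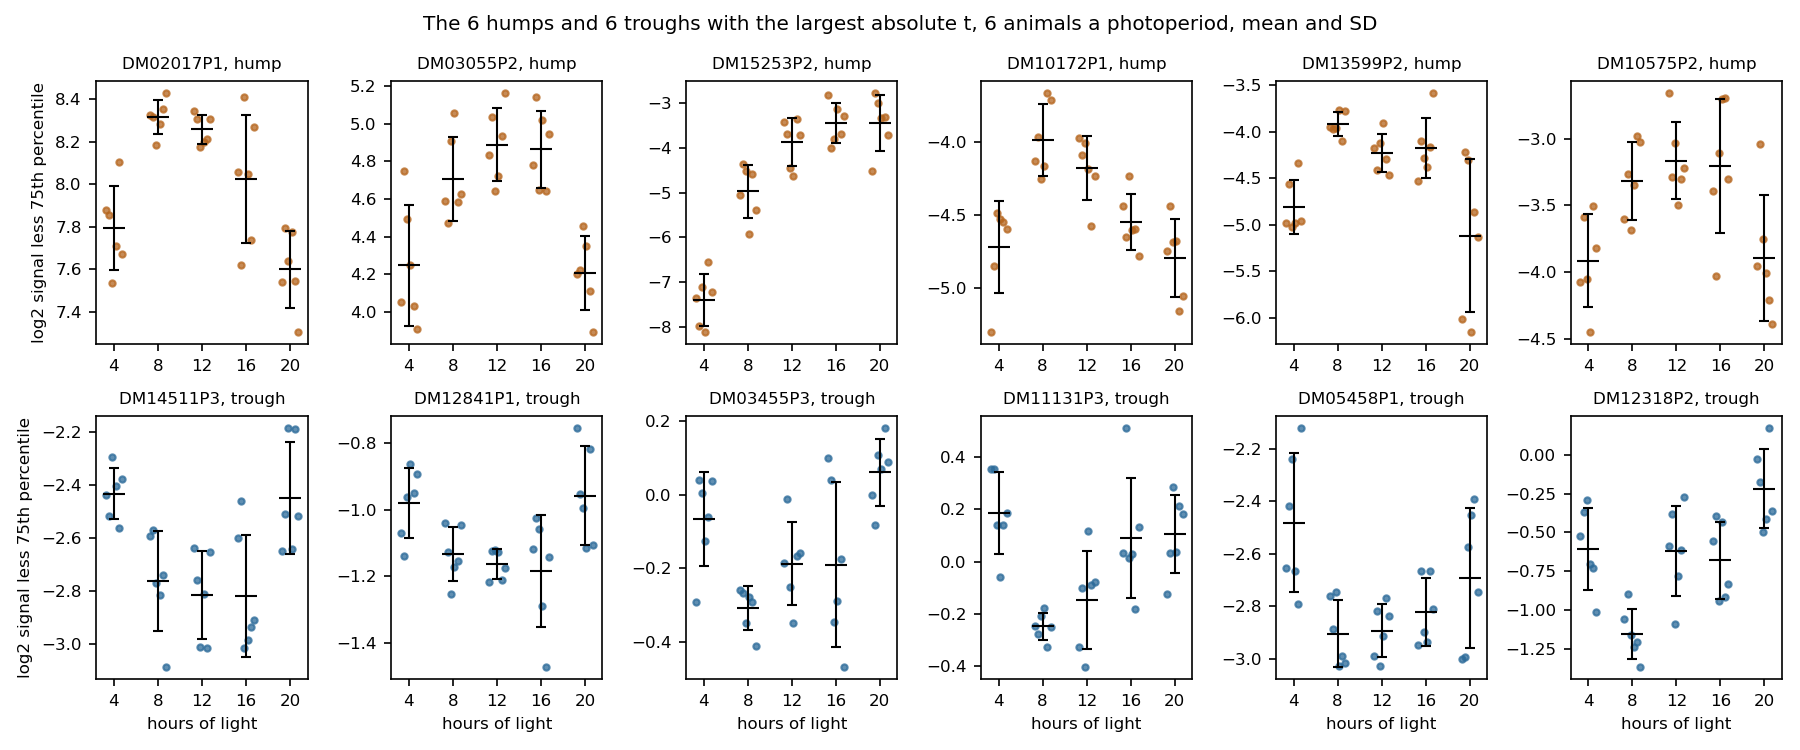
Log2 signal less the 75th percentile (each panel with its own axis) against hours of light for the 6 humps (upper row) and 6 troughs (lower row) with the largest absolute t, with a point for each of 6 animals and the mean and SD in black. The humps span up to several log2 units and DM15253P2 levels off without falling, while the means of each trough span under 1.

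Differences that do not enter the curvature could be tested: a line in hours of light, the 2 ends against each other, the 2 intermediate photoperiods against each other, a fourth-order contrast that sets 12L:12D apart, and letter B against A. All were fitted with limma over all probes, and all share with the choice of members the residual spread of each probe. For a given size the choice favoured a small spread. The median residual SD was 0.21 in the troughs and 0.50 in the humps, beside 0.42 over all probes. Past an adjusted p of 0.05, the line called 2 members, with 0.0761% of all filtered probes called. DM15253P2 rose with longer days (adjusted p 6.81e-08), with no exact size since its 4L:20D values were not above background, and DM00868P2 fell by 1.30 (95% interval -1.82 to -0.78, adjusted p 0.0389). The adjusted p of DM00868P2 ranged from 0.00117 to 0.203 over 31 alternatives and passed in 19. The ends differed in 1 member, DM15253P2 (at least 5.11-fold higher in 20L:4D, adjusted p 2.42e-07), with 0.0423% of probes called. The intermediate photoperiods differed in no member, with 0.00846% called, and the fourth-order contrast and the letter called no probe of the array.

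At an unadjusted p under 0.01 the line took 16 members, where 4.16% of all filtered probes were taken. They were 11 humps that fell with longer days, 2 humps that rose, and 1 trough that rose and 2 that fell. Without the letter A animal of 20L:4D replicate 1 they were 9 members, with 3 humps falling and 3 rising, where 1.95% of all probes were taken, and with slide as a block 3 members and 1.32%. Without both animals of 20L:4D replicate 1, 18 members were taken, with 12 humps falling and 3 rising, where 1.89% of all probes were taken. Without replicate 3 of 4L:20D, 4 members were taken, with 0 humps falling and 2 rising (1.73%). The count of falling humps thus changed with the animals and chambers left out, and the cause was not tested. The ends took 6 members (1.17% of all probes) and the intermediate photoperiods 10 (4.09%), among them DM05678P4, with 16L:8D minus 8L:16D at -1.85 (95% interval -2.66 to -1.04, adjusted p 0.148), and DM03547P2, at 0.67 (0.35 to 0.99, adjusted p 0.185). The fourth-order contrast took 2 members (0.939% of all probes) and the letter none (0.102%). For the curvature itself, 3 of 11821 filtered probes (0.0254%) passed an adjusted p of 0.05, DM02017P1, DM03055P2 and DM15253P2, and 180 (1.52%) an unadjusted p under 0.01. Nothing is read from these, since the rule used that contrast.

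The median difference between the ends was -0.22 in the humps and 0.02 in the troughs, beside 0.03 over all filtered probes, and it was below 0 in 49 of 69 humps (71.0%) and 13 of 31 troughs, beside 45.8% of all probes. Of these 49 humps, 28 belonged to 1 group of 30 that varied together, described below, so they are not separate observations. Without the letter A animal of 20L:4D replicate 1 the difference between the ends was below 0 in 41 humps. The difference of 16L:8D from 8L:16D had a median of -0.26 in the humps and 0.14 in the troughs, beside -0.03 over all probes. It was below 0 in 49 humps (71.0%) and 9 troughs (29.0%), beside 53.8% of all probes. The median half-width of the 95% interval was 0.61 in the humps and 0.28 in the troughs.

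**Figure D4:**
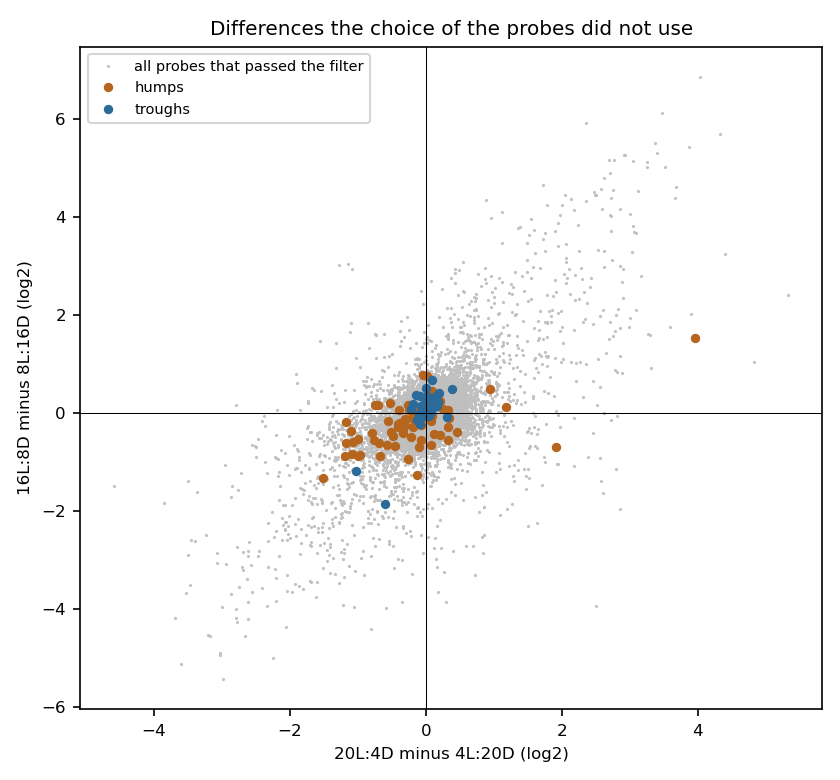
Difference between 16L:8D and 8L:16D against that between 20L:4D and 4L:20D, both in log2 units, for the 69 humps, the 31 troughs and all 11823 filtered probes (grey). Of the humps, 49 lie left of 0 and 49 below it, most troughs cluster close to 0, and the hump farthest right is DM15253P2, placed by 4L:20D signals that were not well above background, so that only its bound of at least 5.11-fold holds.

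The members were not 100 separate observations. With photoperiod means removed, the median r between 2 humps was 0.24 and between 2 troughs 0.20, beside 0.04 over all pairs of filtered probes, and -0.08 between a hump and a trough. That last value turned to 0.07 when arrays were scaled to their median. Grouping by likeness of these deviations (average linkage, 1 minus r up to 0.5) put 61 members in 7 groups of 4 or more and left 18 alone. The groups were formed after the values were seen and are given as a description.

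The largest group held 30 humps, with a median r of 0.68 between pairs. It included the dipeptidase DM04839P3, DM08834P1, apolipoprotein D and DM15253P2, and 24 of its members had no annotation. Its mean over members, relative to their overall mean, was -0.30 at 4 hours of light, 0.48 at 8 hours, 0.43 at 12 hours, 0.12 at 16 hours and -0.74 at 20 hours, and 18 members peaked at 8L:16D. In 20L:4D its 6 animals ran from -2.33 to 0.58, both extremes coming from the chamber of replicate 1. Without the lower of them the 20L:4D mean was -0.42, and 13 of the 30 stayed in a new list of 100. With slide as a block 1 of the 30 stayed. The deviations of this group followed the third principal component of all filtered probes (median r -0.65), which carried 8.40% of the variance between arrays, so other probes of the array moved with it.

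Arrestin, the 3 rhodopsin members and glucose dehydrogenase formed a group of 5 with a median r of 0.69. All 5 stayed in the list without the letter A animal of 20L:4D replicate 1, but only arrestin stayed without that whole chamber. With slide as a block arrestin alone stayed as well, and the sizes there were 0.57 for arrestin, 0.40 and 0.41 for the gprop1 members and 0.50 for gprop2. The 8 troughs of the next group were all lowest at 8L:16D and included RIF1 (median r 0.58). The transient receptor potential channel fell in a group of 4 humps with a median r of 0.61.

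**Figure D5:**
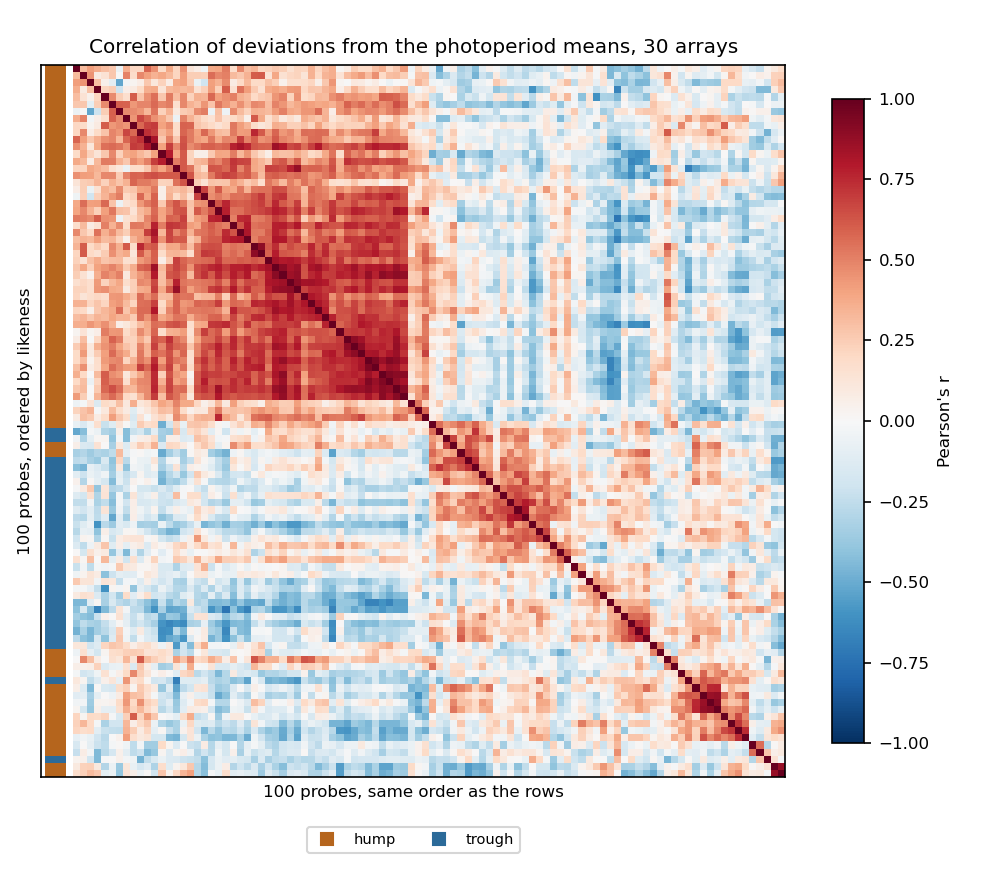
Pearson's r between the 100 members over 30 arrays after removal of photoperiod means, ordered by average linkage, with humps marked brown and troughs blue at the left edge. The dark block is the group of 30 humps, with a median r of 0.68, and the smaller block near the lower right is that of arrestin and the rhodopsins.

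Among the other lists of annotated transcripts, 1 probe of digestion, the dipeptidase, was a member of the 7 that passed the filter. The filtered probes for cuticle and chitin (16), egg (7), ribosome and translation (25), proteasome (16), chaperones (9), splicing (16), circadian (4) and sex determination (3) held no member. Their median sizes, as ends minus middle, were -0.11 for cuticle and chitin, 0.11 for egg, 0.15 for ribosome and translation, 0.10 for proteasome, 0.20 for chaperones, 0.16 for splicing, 0.27 for the circadian probes and -0.01 for sex determination. Those of the visual and digestion lists were -0.47 and -0.79, and the median over all filtered probes was 0.00280. The lists drew unequally on the trial analysed here. The study tabulated for it 5 of 5 visual probes, 6 of 12 of digestion, 3 of 17 of cuticle and chitin and 1 of 8 of egg. For ribosome and translation it was 7 of 28, proteasome 3 of 18, chaperones 3 of 13, splicing 0 of 17, circadian 1 of 4 and sex determination 1 of 3. Nothing is read from which lists held members.

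The boundary of the list was not a gap. The last members inside were the trough DM03294P1 (t 3.12, size 0.31) and the hump DM06712P2 (t -3.11, size 0.71), and the first probes outside were DM05812P2 (t -3.11, a hump of 1.36) and DM08623P2 (t 3.104, a trough of 0.30). DM05812P2 had more than the median hump size with a residual SD of 1.15 and 20L:4D animals from -2.93 to 1.70.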

How the data were processed

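RNA of 30 single animals was labelled with Cy3 and hybridised to 1-colour Agilent arrays, with samples assigned to arrays at random per the methods. The deposited intensity values are processed signals, already background-subtracted but not scaled across arrays. Their headers give Feature Extraction 10.7.3.1, and the submitters' processing notes give 9.5.1. A table of log2 values by the authors, in which arrays were set to their 75th percentile and probes to their median, served as an alternative. Each log2 signal had the array's own 75th percentile (control spots left out) subtracted, replicate spots of a probe were averaged, and 222 outlier spots (0.0487%) set missing. No spot was saturated. The 75th percentile ranged from 359 to 643 intensity units and the share of probes well above background from 70.1% to 89.9%. The number of arrays limits the precision.

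The ranking used a one-way linear model. Tests used limma 3.58.1 (lmFit and eBayes, R 4.3.3) with terms for photoperiod, letter and the interaction, the model that the study's methods give, and Benjamini-Hochberg adjustment over 14336 to 14337 probes. Animals came from separate chambers in 3 pairs per photoperiod, and chamber mates correlated at 0.0129. Members and lists were chosen with earlier results of these data known. Probes named were the 6 humps and 6 troughs with the largest t, those at the boundary, up to 6 of each with a named protein, those past an adjusted p of 0.05 in another contrast, and the visual list. Outside this rule, DM04839P3, DM08834P1, DM00966P3, DM02198P3 and DM08911P1 were chosen after their values were seen. Bounds take, for each dim array, the higher of the probe's value and the lowest single-spot value well above background. The scripts were tested on simulated data. Alternatives were other normalisations, filters, models and blocks, and omission of each chamber. Normexp used the median signal and an offset of 50 intensity units. Only the first trial was analysed.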

Additional observations from a re-analysis of the deposited data

Results flagged for a closer look

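Values were compared within groups of 6 animals, and an animal is named here where the gap between it and its nearest neighbour took up more of the range of the group than the critical value of Dixon allows. Of 135 such groups, from 25 named probes and 2 array measures, 6 held one, and chance gives about 1 in 20. For the letter A animal of replicate 1 in 4L:20D, the 75th percentile of the signal was 362, against 481 to 537 in the others. Only 70.1% of probes stood well above background for the letter A animal of replicate 3 in 16L:8D, against 79.6% to 81.1% for the others there. That animal was also low in the trough DM00868P2 (-6.13, against -4.75 to -4.19), a probe well above background on 5 of the 6 arrays of 16L:8D. In 12L:12D, the letter B animal of replicate 1 was high in DM00868P2 (-3.9999, against -4.77 to -4.55). The letter B animal of replicate 2 in 8L:16D was high in the channel DM04699P3 (-3.44, against -4.13 to -3.96) and in the rhodopsin DM01796P2 (-0.66, against -0.97 to -0.87). No cause of these was tested.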

How the results depend on the processing

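All 100 members kept their direction under each alternative, from which nothing is read, since the same contrast on these arrays chose them. The median size of the humps ranged from 0.31 (normexp, with its offset of 50) to 0.77 (without replicate 2 of 20L:4D). A new list of 100 shared fewer members under normexp background correction with quantile normalisation (54), array quality weights (66), chamber means (57), slide as a block (24), and, chosen after seeing the data, without the 6 arrays in the first slide row (48) and without the letter A array of 20L:4D replicate 1 (62). Omitting 1 chamber left 43 to 90 shared, fewest without replicate 1 of 20L:4D, and 59 and 62 without its replicates 2 and 3. Each chamber of 4L:20D left 64 to 66.

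Probes called for the curvature numbered 3, but 0 under normexp, quantile or median scaling, slide block, chamber means and without the first-row arrays, 1 with slide row as a block or without the letter A array, and 26 with array weights. Omitting 1 chamber gave 0 to 9. Members called by the line were 0 among probes above background on all arrays, and 1 without moderation, with chamber means, or without 10 of the 15 chambers (all of 8L:16D and 12L:12D, replicates 1 and 2 of 4L:20D, 2 and 3 of 20L:4D), giving 1 to 2. Members called between the ends were 2 under normexp and array weights and 0 with the strictest filter, since DM15253P2 was then not tested, and 1 whichever chamber was omitted. Array weights called 3 members for the intermediate photoperiods and 3 for the fourth-order contrast, in place of 0. The causes were not tested. Median r, on omitting chambers, was 0.17 to 0.26 for humps, 0.15 to 0.23 for troughs and -0.09 to -0.03 between them, and 0.0685 between them under median scaling.

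Same-numbered chambers correlated at -0.672 to 0.418, so numbers do not pair them. With the replicate block, 89 members were shared, 2 probes were called for the curvature, and no count of members called changed.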
